A study of Mus musculus with 2 samples.

Results

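The genes described here are 33 enzymes of purine and pyrimidine nucleotide supply, chosen by symbol from textbook pathway membership. All 33 were among the 32286 features of the deposited matrices. They comprise 11 enzymes of de novo purine synthesis (Ppat, Gart, Pfas, Paics, Adsl, Atic, Prps1, Prps2, Impdh1, Impdh2, Gmps), 3 of purine salvage and phosphorylation (Hprt, Aprt, Guk1) and 5 of de novo pyrimidine synthesis (Cad, Dhodh, Umps, Ctps, Ctps2). The others are 5 salvage enzymes and kinases (Uck1, Uck2, Cmpk1, Nme1, Nme2) and 9 enzymes that supply or remove deoxynucleotides (Rrm1, Rrm2, Rrm2b, Tyms, Tk1, Dtymk, Dut, Dck, Samhd1). They were followed through cell classes of mouse bone marrow in 2 single-cell libraries of whole hematopoietic cells. One library came from the genotype Mx1Cre+/-;Rosa26+/+ and is called the control. The other came from Mx1Cre+/-;Rosa26LSL-MYC/LSL-MYC and is called the MYC library. The study set out to compare marrow expression after MYC was overexpressed in stem cells. Both genotypes carry 1 copy of Mx1-Cre, a recombinase under an interferon-inducible promoter that acts in many cell types besides stem cells, and only the second carries the silenced MYC cassette that Cre opens. The labels give neither the age of the mice, nor their number, nor how Cre was induced.

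Cells make nucleotides in 2 ways. De novo synthesis builds the purine ring on ribose phosphate and the pyrimidine ring from aspartate and carbamoyl phosphate, at a high cost in amino acids and one-carbon units, whereas salvage enzymes reattach free bases and nucleosides. Ribonucleotide reductase then turns ribonucleotides into the deoxynucleotides that DNA synthesis consumes, and dividing marrow progenitors are among the tissues most sensitive to drugs that block these steps. Several of these enzymes are textbook targets of MYC, which binds the E-box CACGTG, and neutrophils stop dividing as they mature.

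The start regions of the genes were therefore searched for CACGTG, which reads the same on both strands, in windows of 300 bases from 250 before to 50 after each RefSeq start site (build GRCm38.p6). Of the 33 genes, 30 matched the RefSeq table, and 6 of these (20%) had the sequence in at least 1 window, beside 7.15% of 32851 windows and 8.09% of 27025 genes in the whole table. The 3 unmatched genes were Dhodh, Pfas and Rrm2b. The sites are shown because they differ in place and flanks between genes whose levels are compared below. Each line gives 66 bases 5′ to 3′ on the strand of the gene, with the E-box in capitals.
Nme1, chr11:93968255-93968320, minus strand, 18 bases before a start site: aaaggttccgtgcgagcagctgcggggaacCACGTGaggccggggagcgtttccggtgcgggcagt
Nme1, chr11:93968019-93968084, minus strand, 29 bases before a second start site: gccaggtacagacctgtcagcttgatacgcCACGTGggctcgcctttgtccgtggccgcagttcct
Dtymk, chr1:93802047-93802112, minus strand, 148 bases before the start site: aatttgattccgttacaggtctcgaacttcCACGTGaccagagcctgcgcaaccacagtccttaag
Atic, chr1:71557119-71557184, plus strand, 7 bases before the start site: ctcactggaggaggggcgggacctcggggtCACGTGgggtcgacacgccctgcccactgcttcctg
Impdh2, chr9:108560296-108560361, plus strand, 110 bases before the start site: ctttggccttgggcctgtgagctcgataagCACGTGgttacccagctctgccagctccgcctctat
Paics, chr5:76951069-76951134, plus strand, 203 bases before the start site: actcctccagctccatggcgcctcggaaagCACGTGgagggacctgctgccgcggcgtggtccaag
Tyms, chr5:30073651-30073716, minus strand, 61 bases before the start site: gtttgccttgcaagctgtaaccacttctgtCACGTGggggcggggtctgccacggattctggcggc
Distances run from the first base of the E-box. The windows of Nme2, Aprt, Dck and Samhd1 did not contain these letters. A match is a description of sequence and not a binding site.

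The control held 17073 barcodes with 131884603 unique molecules (UMIs) and the MYC library 14496 barcodes with 110012176. After filters 14903 and 12540 cells remained, with medians of 5343 and 6016 UMIs per cell, and 97 barcode sequences occurred in both libraries. Cells were clustered, and clusters were named from marker lists, so that each name below, such as monocyte, stands for a monocyte-like cluster or group of clusters. One large cluster of low-UMI cells (2454 cells from the control, 2592 from the other) stayed unnamed. Levels are in CPM, the UMIs of a gene in a cell class of 1 library per 1000000 UMIs of all genes there. The libraries count 1 end of each transcript, so levels of different genes were compared without scaling by length. With 1 library for each genotype no test was possible, no p-value is given, and intervals in brackets are 95% intervals that cover counting error only. A feature named MYC, of unstated sequence, had 0 UMIs in each of 9 control classes inspected. In the other library it had 0.71 CPM in granulocyte progenitors and 11.5 CPM in mature neutrophils.

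The summed level of the 33 genes was highest in stem or multipotent progenitors, with 3654 CPM in the control, and in erythroid cells, with 3650.3 CPM. It was 3087 CPM in monocytes, 2995 CPM in granulocyte progenitors and 1353 CPM in immature neutrophils. In stem or multipotent progenitors Nme2 (591 CPM), Nme1 (305.5 CPM) and Dut (267 CPM) led in the control. Nme1 and Nme2 are nucleoside diphosphate kinases, which make triphosphates from diphosphates, and Dut removes dUTP. In erythroid cells both subunits of ribonucleotide reductase led, with Rrm1 at 536 CPM and Rrm2 at 489.5 CPM, followed by Dut at 357 CPM. Erythroid cells therefore ranked high through the deoxynucleotide enzymes (2117 of 3650.3 CPM), whereas in stem or multipotent progenitors these were 928 CPM.

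Among the de novo enzymes, the stem or multipotent progenitors held the highest control level of Cad, the enzyme of the first 3 steps of pyrimidine synthesis (62.3 CPM, beside 41.1 CPM in erythroid cells), and of Umps, which makes UMP (62.4 CPM, beside 50.5 CPM in granulocyte progenitors). Impdh2, which commits IMP to guanine nucleotides, stood at 249 CPM there, at 163 CPM in erythroid cells and at 107 CPM in monocytes. Its isozyme Impdh1 had another order, with its highest control level in granulocyte progenitors at 84.7 CPM. Aprt, which salvages adenine, was likewise highest in granulocyte progenitors (393 CPM), then in immature neutrophils (285 CPM). In monocytes Nme2 (517 CPM), Samhd1 (463 CPM) and Aprt (255 CPM) led in the control. In the B lineage Nme2 (269 CPM), Samhd1 (165 CPM) and Nme1 (146 CPM) led.

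Dck and Samhd1 had their maximum where the others were low. Dck phosphorylates salvaged deoxycytidine, and Samhd1 hydrolyses deoxynucleotide triphosphates. Dck reached 239 CPM in control mature neutrophils and 196 CPM in B progenitors. Samhd1 reached 738 CPM in mature neutrophils and 714 CPM in conventional dendritic cells, 2 levels whose counting intervals overlap. Rrm2b, the small reductase subunit used outside S phase, was highest in B progenitors at 118 CPM. In the MYC library the leading enzymes were Nme2 (1002 CPM), Nme1 (418 CPM) and Dut (336 CPM) in stem or multipotent progenitors, and Dut (368 CPM), Nme1 (353 CPM) and Rrm1 (282 CPM) in erythroid cells. Nme2 (1128 CPM), Aprt (442 CPM) and Nme1 (334 CPM) led in monocytes of that library, and Nme2 (721 CPM), Nme1 (241 CPM) and Samhd1 (98.4 CPM) in its B lineage.

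**Figure D1:**
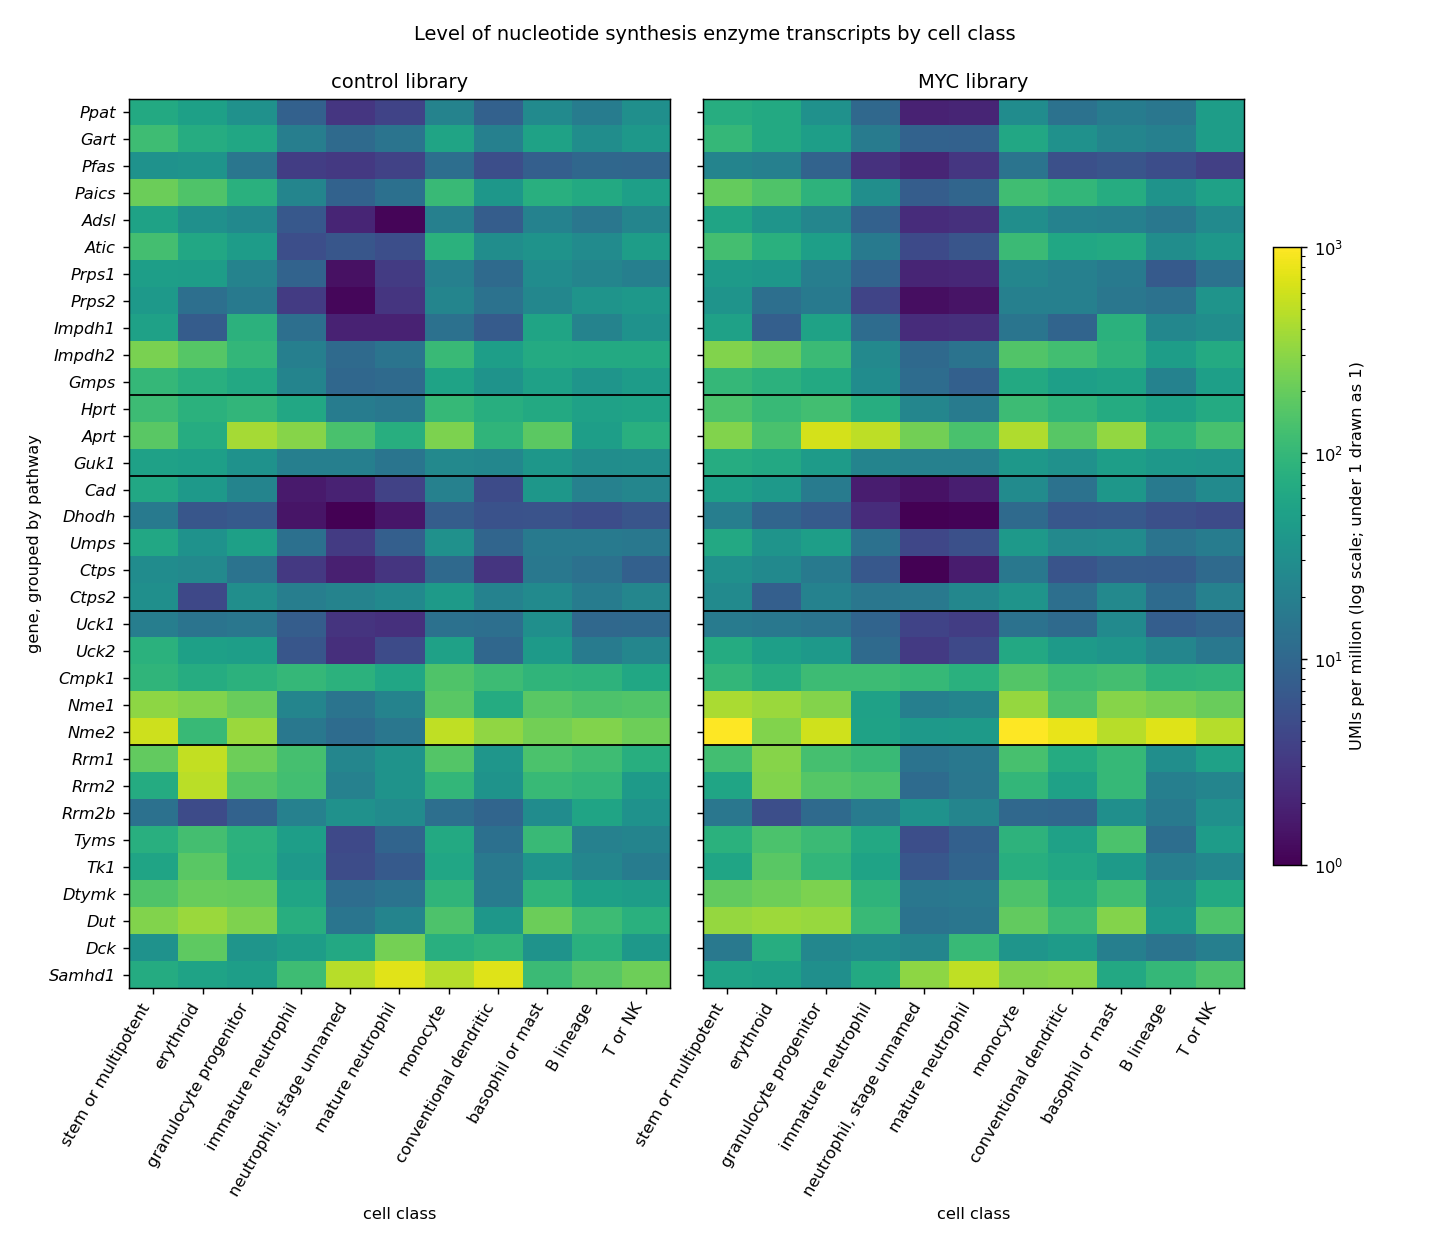
Level of each of the 33 genes (rows) in each cell class (columns), in CPM on a logarithmic colour scale, for the control and the MYC library. Most de novo enzymes are highest in stem or multipotent progenitors and lowest in the later neutrophil classes, whereas Dck and Samhd1 are highest in mature neutrophils.

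Along the neutrophil lineage most of the 33 genes were lower in mature cells than in granulocyte progenitors. In the control Impdh1 in mature neutrophils was 2.296% of its progenitor level (14 UMIs in mature cells). Adsl, an enzyme of purine synthesis, was 4.17% (8 UMIs), Nme2 4.28%, and Dtymk, which makes dTDP, 7.11%. Dut was 8.53%, thymidine kinase Tk1 8.93% and Nme1 10.8%. The same comparison gave 0.838% for Elane, a progenitor granule gene, 18.1% for Mki67, a proliferation gene, and 500% for Car1, a gene of early erythroid cells. RNA from other cells was not removed, and its part in these percentages was not tested. A second group was kept more closely, namely Guk1, the guanylate kinase, at 44.0% of the progenitor level, Cmpk1, the UMP and CMP kinase, at 69.5% and Ctps2, a CTP synthase, at 86.3%. Only 3 of the 33 stood above the progenitor level in the control: Rrm2b at 316%, Dck at 648% and Samhd1 at 1541%. In the MYC library these were 213%, 427% and 1650.4%, and Ctps2 was also above at 115%.

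The leading genes changed with this. Aprt (393 CPM), Nme2 (357 CPM) and Dut (262 CPM) led in control granulocyte progenitors, and Aprt (285 CPM), Rrm1 (132 CPM) and Rrm2 (123 CPM) in immature neutrophils. A neutrophil class whose stage could not be named had 14749 CPM of Camp in the control, between immature neutrophils (42641 CPM) and mature neutrophils (1279 CPM). There Samhd1 (472 CPM), Aprt (136 CPM) and Cmpk1 (84.9 CPM) led. Mature neutrophils were led by Samhd1 (738 CPM), Dck (239 CPM) and Aprt (75.0 CPM). The same 3 genes led in mature neutrophils of the MYC library, at 521, 104 and 139 CPM in that gene order. In its granulocyte progenitors Aprt (634 CPM), Nme2 (603 CPM) and Dut (343 CPM) led, and in its immature neutrophils Aprt (504 CPM), Rrm2 (141 CPM) and Cmpk1 (115 CPM). The unnamed stage of that library was led by Samhd1 (308 CPM), Aprt (228 CPM) and Cmpk1 (104 CPM). Free RNA was not removed, and control mature neutrophils held 528 CPM of the haemoglobin gene Hba-a1, and those of the MYC library 311 CPM, whose part in low levels there was not tested.

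**Figure D2:**
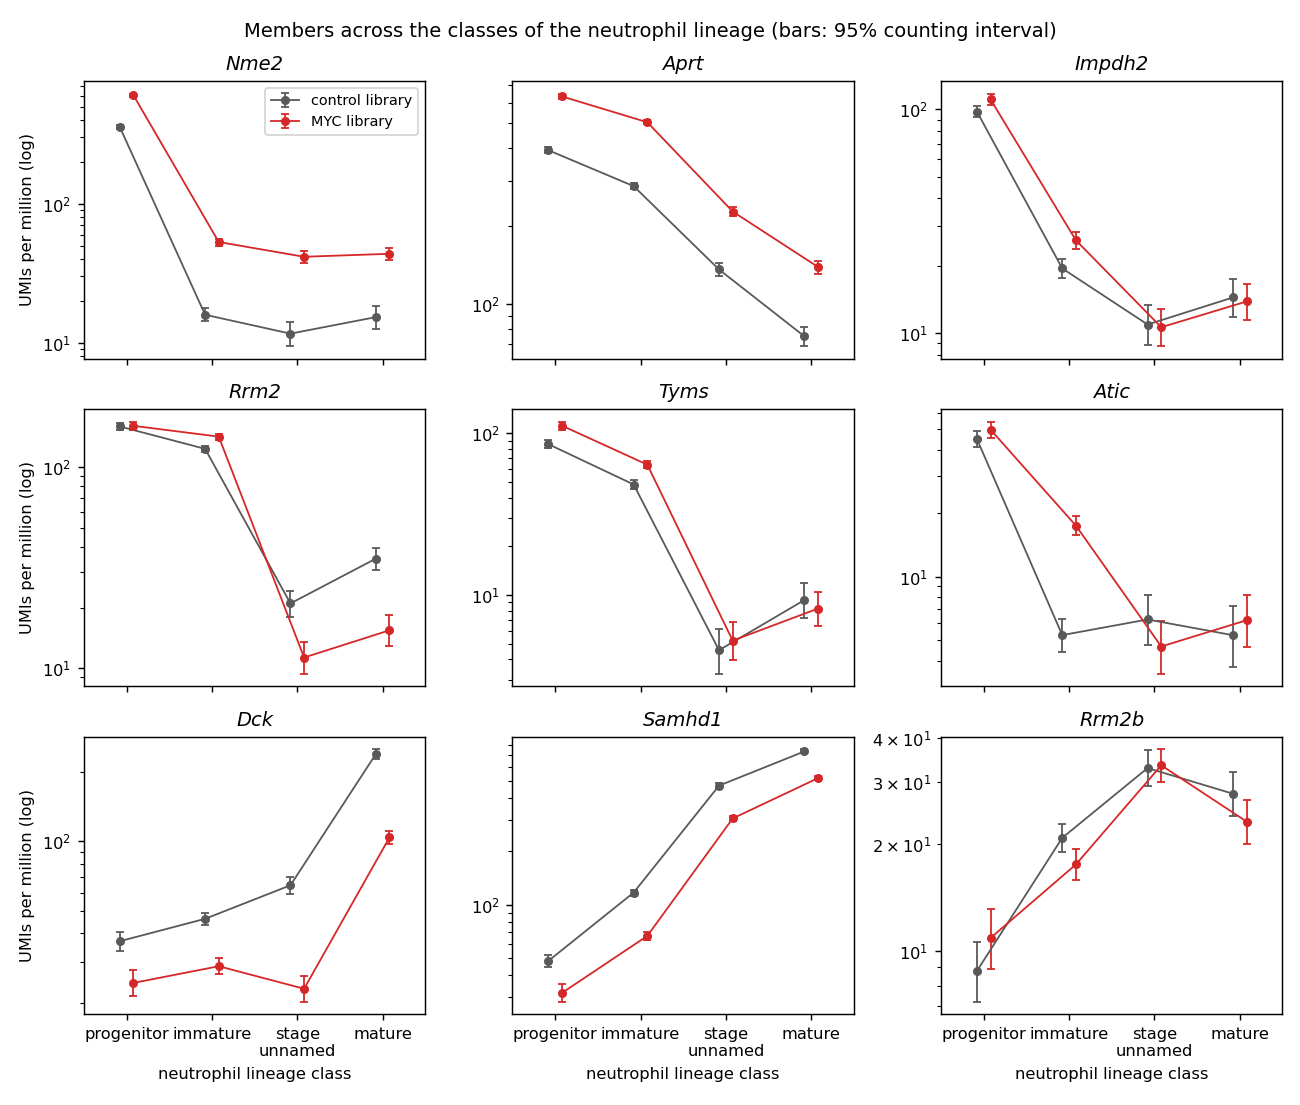
Level in CPM (logarithmic axis) of 9 genes in the 4 neutrophil classes, from granulocyte progenitors to mature cells, with 1 line for each library. Error bars are exact Poisson intervals for counting error. Samhd1 and Dck are highest in mature cells, Nme2, Tyms and Impdh2 lowest in the later classes, and Aprt and Nme2 are higher in the MYC library in each class.

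To see how far levels went with division, cells were called cycling when at least 10 of 2000 randomly drawn UMIs belonged to lists of S-phase and G2/M genes that contain none of the 33. Of 619 cycling control monocytes 558 were of cluster 6, and of 647 others 611 were of cluster 7. Of 916 cycling control immature neutrophils 684 were of cluster 5, and of 1139 others 1137 were of cluster 2. The part of cell stage in the differences below was not tested. In control monocytes, thymidine kinase Tk1 was higher in cycling than in other cells by 3.65 on the log2 scale, thymidylate synthase Tyms by 3.40, Rrm2 by 2.99 and Rrm1 by 2.95. These are the enzymes of deoxythymidine and ribonucleotide reduction. Cad differed by 1.88 and Impdh2 by 1.68. Aprt (0.01), Dck (-0.01), Cmpk1 (-0.06) and Ctps2 (0.12) did not go with division in these cells. Samhd1 went the other way, with 254 CPM in cycling and 823 CPM in other control monocytes (-1.69), and so did Rrm2b (-0.51). The same 4 genes led in immature neutrophils, with Tyms at 3.78, Tk1 at 3.55, Rrm2 at 3.40 and Rrm1 at 3.19, and Samhd1 at -1.71 and Rrm2b at -1.02. Dck there was higher in cycling cells by 1.49, unlike in monocytes. Among cycling monocytes, Ppat, which opens purine synthesis, was higher in S-leaning than in G2/M-leaning cells by 1.38, Dut by 1.01, Ctps by 0.99, Paics by 0.91 and Atic by 0.87.

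Between the libraries, genes at least 1.5-fold apart were counted in classes where the mean of both levels would give at least 50 UMIs in the smaller sum. Nme2 and Aprt stood higher in the MYC library in class after class, while Dck stood lower. Over all neutrophil-lineage cells (6532 and 5839) all 33 genes had enough UMIs. Nme2 and Aprt were at least 1.5-fold higher, beside 4.31% of 10647 genes, and Dck, Rrm1, Pfas and Impdh1 at least 1.5-fold lower, beside 20%. Impdh1 was -0.70, but -0.05 in cells that were not cycling and -0.07 in cells under 5% mitochondrial UMIs. The median log2 ratio was 0.01 over the 33 and -0.27 over all genes tested. Nme2 was 97.3 CPM in control cells and 156 CPM in MYC-library cells (0.68 [0.63, 0.73]), and Aprt 255 and 410.2 CPM (0.68 [0.65, 0.72]). Among cells under 5% mitochondrial UMIs Nme2 differed by 1.54. Dck was 74.6 and 39.1 CPM (-0.93 [-1.01, -0.85]). Gmps (0.01), Paics (0.02) and Rrm2b (-0.03) differed least in this lineage.

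In granulocyte progenitors (615 and 527 cells) all 33 had enough UMIs and 20 were higher in the MYC library, with a median of 0.04 beside -0.28 over all genes. The median share of mitochondrial UMIs per cell was 4.41% in control and 2.92% in MYC-library cells of this class, and among cells under 5% the median ratio was 0.37 beside -0.18. Nme2 and Aprt were at least 1.5-fold higher (4.71% of all genes), and Dck, Rrm1, Pfas, Impdh1 and Samhd1 lower (24.6%). In immature neutrophils (2131 and 1851 cells) 31 had enough UMIs and 23 were higher, with a median of 0.27 beside -0.20. There 7 genes were at least 1.5-fold higher, namely Ctps, Uck2, Nme1, Nme2, Dtymk, Atic and Aprt (8.80% of all genes), and 2 lower, Dck and Samhd1 (18.2%). The class joined cluster 2 (1436 and 909 cells), with a median of 0.28, and cluster 5 (695 and 942 cells), with a median of 0.08. Dtymk was 0.77 in cluster 2 and 0.30 in cluster 5, and in cluster 5 Uck2 was 0.51 and Samhd1 -0.33. In the neutrophils of unnamed stage Nme2 and Aprt were higher (8.98%), and Dck, Rrm1, Rrm2 and Samhd1 lower (19.2%), of 19 with enough UMIs. Samhd1 there was -0.62, but -0.04 with doublets kept, and Rrm2 -0.89, but -0.05 at Leiden resolution 2. In mature neutrophils 20 had enough, with Nme2 and Aprt higher (8.08%), and Dck, Rrm1, Rrm2 and Gart lower (24.0%).

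In monocytes (1304 and 1639 cells) 26 of the 33 were higher in the MYC library, with a median of 0.33 beside -0.15 over all genes. Ctps, Nme1, Nme2, Dtymk, Aprt and Guk1 were at least 1.5-fold higher (7.69% of all genes), and Dck and Samhd1 lower (15.7%). The 2 monocyte clusters differed, with a median of 0.20 in cluster 6 (598 and 893 cells) and 0.31 over 28 genes in cluster 7 (706 and 746 cells). In cluster 6 Dtymk was 0.57, Guk1 0.55, Ctps 0.47 and Samhd1 -0.44, each less than 1.5-fold apart. Cluster 7 had Impdh2 at 1.19, Impdh1 at 0.72, Tyms at 0.69, Adsl at 0.66 and Atic at 0.64. The sum of the 33 was 3087 CPM in control monocytes and 4131 CPM in those of the MYC library. In stem or multipotent progenitors (239 and 211 cells) the median was 0.03 beside -0.14, with Nme2 and Aprt higher (4.74%), and Dck, Rrm1 and Pfas lower (9.77%). In erythroid cells (1467 and 587) 31 had enough UMIs, the median was 0.07 beside -0.08, and Dhodh, Nme2 and Aprt were higher (11.7%), and Dck, Rrm1, Rrm2 and Pfas lower (14.2%). The erythroid class was a different mix in each library, with 763 and 183 cells in cluster 9, 387 and 279 in cluster 11 and 317 and 125 in cluster 15. Car1, a gene of early erythroid cells, was 741 CPM in the control class and 1765 CPM in the other, and its part in the result was not tested. The median was 0.36 in cluster 9, over 19 genes, and -0.17 in cluster 15, over 30, beside -0.20 and -0.19 over all genes. Within cluster 9 Nme1 was 0.90, Ppat 0.79 and Tyms 0.68, whereas in cluster 15 these were 0.14, 0.12 and -0.27. In the B lineage (1247 and 246 cells) the median over 22 genes was -0.53 beside -0.42. Nme1, Nme2 and Aprt were higher there (9.66%), and 10 genes lower (39.8%). Marker sums in the B lineage differed too, with B progenitor markers at 2648 and 1329 CPM and monocyte markers at 845 and 2831 CPM. Their part in the result was not tested. Smaller classes were alike for Nme2 and Aprt, which were both at least 1.5-fold higher among T or NK cells (13.1% of genes), conventional dendritic cells (20.9%) and basophils or mast cells (10.3%). Of the 9 genes with enough UMIs in T or NK cells none was at least 1.5-fold lower (8.74%), and of 21 in basophils or mast cells Gart and Samhd1 were (16.9%). In the T or NK class NK markers summed to 3210 and 7476 CPM and T cell markers to 2478 and 3281 CPM. Their part in the values of this class was not tested.

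Scaling set part of these counts. Each library was scaled to its own total, and the median of all genes then lay between -0.28 and -0.08 in the 7 classes from granulocyte progenitors to erythroid cells that are counted next. Over these classes and 200 gene-class pairs, 24 pairs were at least 1.5-fold higher and 24 lower, beside 7.75% and 17.8% of the pairs of all genes. With median-of-ratios scaling, which puts the middle gene at no change, the counts were 48 and 12, beside 13.9% and 8.44%. Gm42418, a gene whose counts include ribosomal RNA, had 129811 CPM in control monocytes and 59807 CPM in those of the MYC library, and 162290 and 113592 CPM in mature neutrophils. With Gm42418, mitochondrial and ribosomal protein genes left out of the totals the counts were 24 and 22, beside 8.09% and 17.0%.

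**Figure D3:**
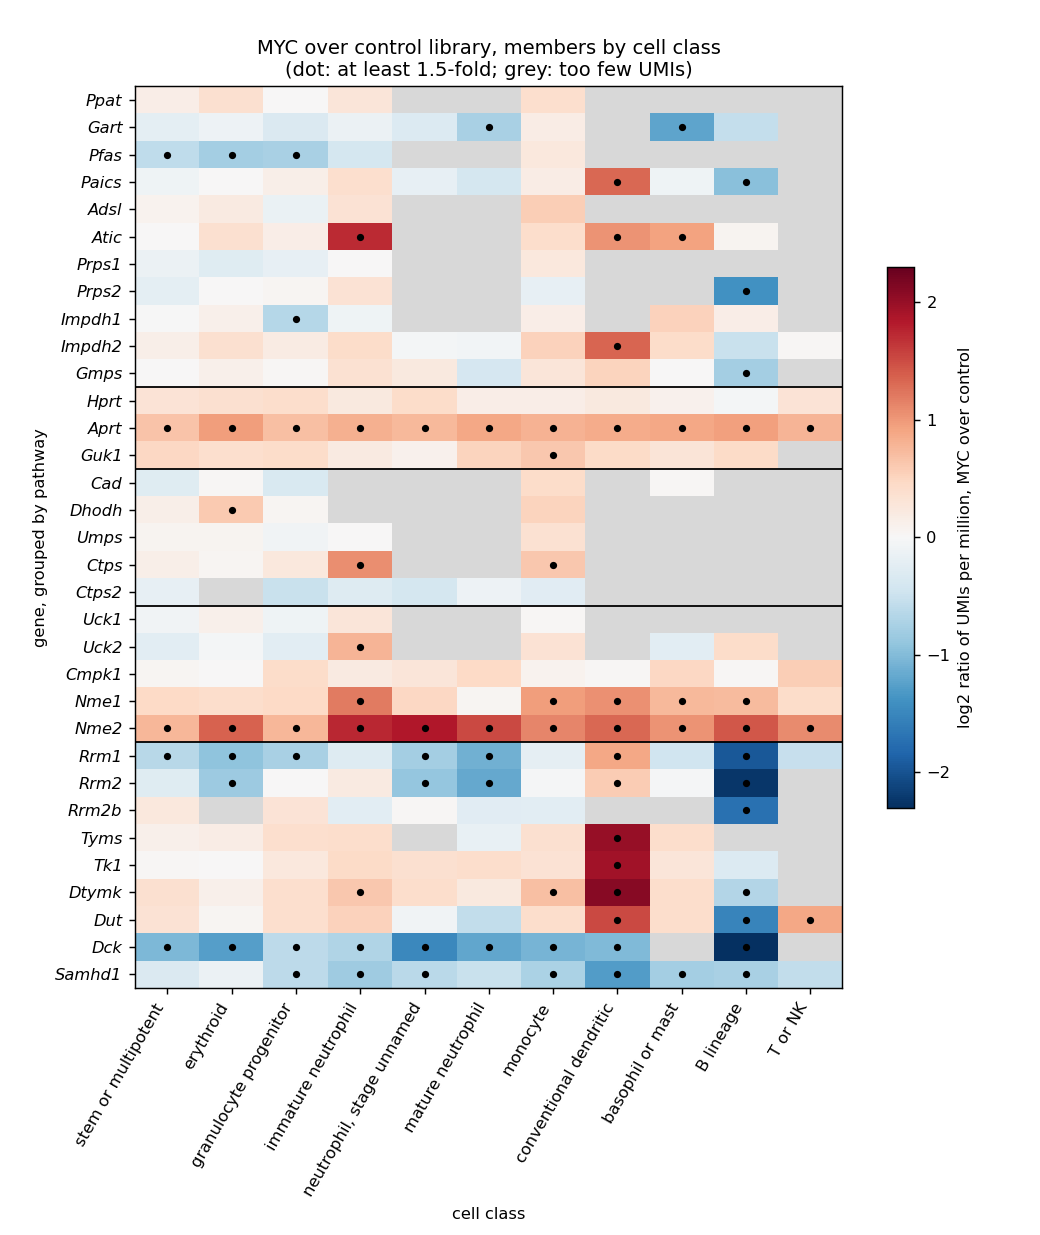
log2 ratio of the MYC library over the control for each of the 33 genes (rows) in each class (columns). Dots mark ratios of at least 1.5-fold, and grey cells had too few UMIs; Aprt and Nme2 are above 0 and Dck below 0 in each class with a value.

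Aprt was the steadiest of the salvage enzymes. Its control and MYC-library levels were 393 and 634 CPM in granulocyte progenitors (0.69 [0.64, 0.75]), 285 and 504 CPM in immature neutrophils (0.82) and 75.0 and 139 CPM in mature neutrophils (0.89). They were 255 and 442 CPM in monocytes (0.80), 170 and 267 CPM in stem or multipotent progenitors (0.65 [0.53, 0.78]), and 71.1 and 138 CPM in erythroid cells (0.96). In the B lineage they were 48.1 and 92.1 CPM (0.94). Camp, a gene of immature neutrophils, was 1279 and 2737 CPM in mature neutrophils, whose clusters differed between the libraries. Its part in the Aprt value there was not tested. Over the listed classes the Aprt ratios stayed within a narrow span although the control level varied widely. Hprt, the other purine base salvage enzyme, differed by less in these classes, with 93.2 and 123 CPM in granulocyte progenitors (0.40), 102 and 113 CPM in monocytes (0.15) and 81.9 and 105 CPM in erythroid cells (0.36), but 52.6 and 50.8 CPM in the B lineage (-0.05). Guk1 was 25.8 and 39.4 CPM in monocytes (0.61 [0.45, 0.78]) and 33.4 and 44.6 CPM in granulocyte progenitors (0.42).

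Nme2 was higher in the MYC library in each class with enough UMIs. It was 15.9 CPM in control immature neutrophils and 53.0 CPM in those of the MYC library (1.74 [1.57, 1.91]), 11.6 and 41.5 CPM in the unnamed stage (1.84), and 15.3 and 43.6 CPM in mature cells (1.51). In monocytes it was 517 and 1128 CPM (1.12), in erythroid cells 105 and 270 CPM (1.36), in the B lineage 269 and 721 CPM (1.42), and in stem or multipotent progenitors 591 and 1002 CPM (0.76). Both low-level and high-level classes therefore showed the difference, although within erythroid cluster 11 Nme2 was 86.9 and 74.3 CPM (-0.23). Nme2 counts are uncertain in identity, because 98.9% of the 60-base windows in the last 500 bases of its transcript also occur in the read-through gene Gm20390 or in the copies Gm5425, Gm5566 and Gm7730, none of which is among the features. Nme1 shares no such window. It was 173 and 334 CPM in monocytes (0.95), 23.1 and 52.8 CPM in immature neutrophils (1.19), 204 and 280.2 CPM in granulocyte progenitors (0.46) and 146 and 241 CPM in the B lineage (0.72), but 22.1 and 22.7 CPM in mature neutrophils (0.04).

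Nme1 and Nme2 are neighbours on chromosome 11 (93956979 to 93968521 and 93949814 to 93956259, minus strand, GRCm38), and their balance differed between classes and libraries. Nme1 made up 71.9% of the UMIs of both in control erythroid cells and 56.7% in those of the MYC library. It was 59.1% and 34.2% in mature neutrophils, 59.2% and 49.9% in immature neutrophils, 36.3% and 31.7% in granulocyte progenitors, 34.1% and 29.4% in stem or multipotent progenitors, and 25.04% and 22.9% in monocytes. The share of Nme1 was thus lower in the MYC library in each of these classes.

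**Figure D4:**
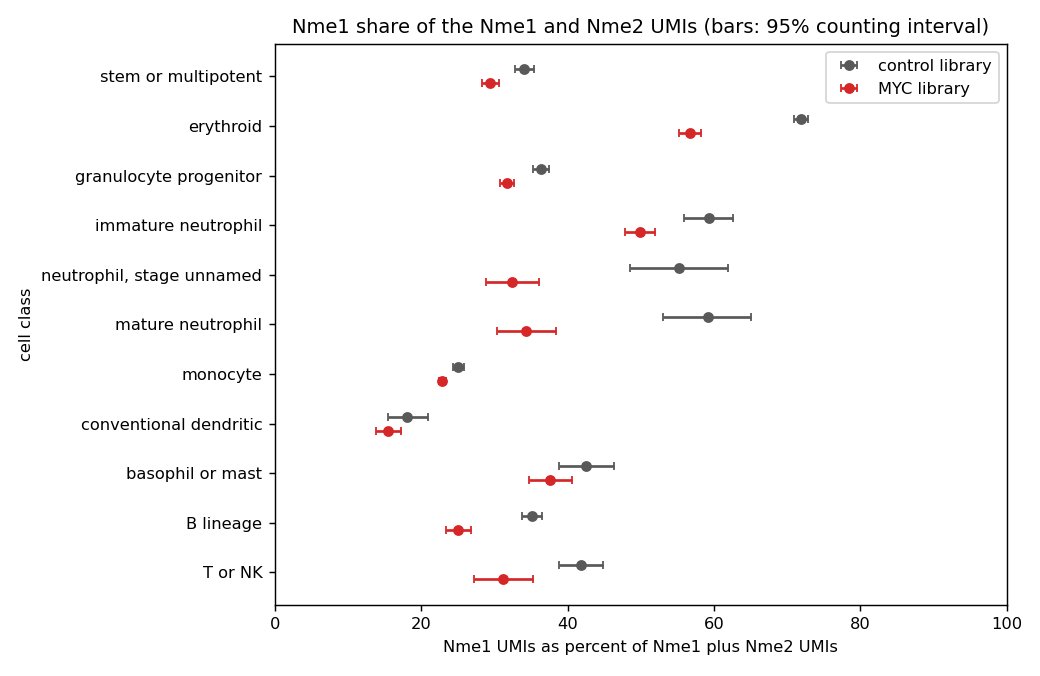
Nme1 as a percentage of the UMIs of Nme1 and Nme2 together, by class, for the control and the MYC library. Bars are exact Clopper-Pearson intervals for counting error; erythroid cells have the highest control share among the large classes, at 71.9%, and monocytes lie at 25.04% and 22.9%.

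Of the 11 genes of de novo purine synthesis, 6 were higher in granulocyte progenitors of the MYC library (median 0.00), 8 in immature neutrophils (0.33), 10 in monocytes (0.25), 5 in stem or multipotent progenitors (-0.01) and 8 in erythroid cells (0.11). In the same class order, 30.4%, 35.4%, 37.5%, 37.7% and 44.5% of all genes were higher, with medians of -0.28, -0.20, -0.15, -0.14 and -0.08. Atic, which closes the purine ring, stood out in immature neutrophils with 5.28 and 17.5 CPM (1.72 [1.42, 2.04]), and both clusters of that class had it (4.63 and 14.3 CPM in cluster 2, and 6.05 and 19.5 CPM in cluster 5). It was 83.2 and 109.6 CPM in monocytes (0.40) and 126 CPM in both libraries in stem or multipotent progenitors (0.00). Pfas, a middle step of the ring, was lower in granulocyte progenitors (14.95 and 8.96 CPM, -0.74), stem or multipotent progenitors (33.9 and 22.6 CPM, -0.59) and erythroid cells (35.3 and 20.5 CPM, -0.79), but 12.04 and 14.3 CPM in monocytes (0.25). Gart was 14.4 and 8.60 CPM in mature neutrophils (-0.75).

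The 2 IMP dehydrogenases parted in granulocyte progenitors. Impdh1 was 84.7 and 53.4 CPM there (-0.66 [-0.82, -0.51]), and Impdh2 97.7 and 111 CPM (0.18), so that the share of Impdh1 in their UMIs was 46.4% in control cells and 32.6% in the others. Among cells under 5% mitochondrial UMIs Impdh1 differed by -0.12. In immature neutrophils its share was 38.9% and 30.8%, in monocytes 10.8% and 8.59%, and in erythroid cells 4.42% and 3.75%. Impdh2 was 107 and 154 CPM in monocytes (0.53) and 163 and 209 CPM in erythroid cells (0.36). Its counts too are uncertain, as 79.6% of its tail windows occur in the copy Impdh2-ps. Prps1 and Prps2 make the ribose phosphate donor of both pathways. Prps1 made up 79.2% and 75.9% of the pair in erythroid cells, 46.5% and 53.9% in monocytes and 39.1% and 34.0% in the B lineage. Ppat and Paics overlap on opposite strands of chromosome 5. The overlap lies at the 5′ ends of both genes (76951307 to 76951578), whereas the libraries read 3′ ends. Whether counting used strand is not stated.

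Among de novo pyrimidine genes, Cad was 7.13 and 4.82 CPM over all neutrophil-lineage cells (-0.57). It was 22.8 and 17.9 CPM in granulocyte progenitors (-0.35), 21.1 and 28.4 CPM in monocytes (0.43) and 62.3 and 51.2 CPM in stem or multipotent progenitors (-0.28). Umps lay between -0.08 and 0.35 in these 3 classes. Dhodh, the mitochondrial step, was 6.33 and 9.63 CPM in erythroid cells (0.61, but 0.33 at Leiden resolution 2). In immature neutrophils and monocytes the 2 CTP synthases differed in opposite directions. Ctps was 3.18 and 6.64 CPM in immature neutrophils (1.06 [0.64, 1.49]) and 10.5 and 16.0 CPM in monocytes (0.61), while Ctps2 was 19.3 and 15.6 CPM (-0.30) and 42.6 and 35.6 CPM (-0.26). The share of Ctps in the pair was therefore 14.2% and 29.9% in immature neutrophils, 19.7% and 31.1% in monocytes and 31.2% and 43.6% in granulocyte progenitors, but 85.1% and 76.8% in erythroid cells. With few UMIs of Ctps it was 7.69% and 4.84% in the unnamed stage, 9.91% and 6.36% in mature neutrophils and 36.5% and 22.9% in basophils or mast cells. Uck2, a uridine kinase, was 6.31 and 10.8 CPM in immature neutrophils (0.78), and its isozyme Uck1 had 54.8% and 46.1% of their UMIs there and 18.6% and 20.2% in stem or multipotent progenitors.

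Among the deoxynucleotide enzymes, Rrm1 and Rrm2, the large and the small subunit of one enzyme, did not move alike. In granulocyte progenitors Rrm1 was 218 and 130.5 CPM (-0.74 [-0.84, -0.64]) and Rrm2 159 and 160.1 CPM (0.01). In stem or multipotent progenitors Rrm1 was 192 and 123 CPM (-0.64) and Rrm2 70.0 and 57.5 CPM (-0.28). Cycling cells were 91.6% of control and 84.5% of MYC-library granulocyte progenitors, and 65.5% and 50.2% of stem or multipotent progenitors. With a minimum of 20 UMIs they were 42.3% and 26.1%, and 29.4% and 17.9%. Their part in these values was not tested. In erythroid cells both were lower, Rrm1 at 536 and 282 CPM (-0.93) and Rrm2 at 489.5 and 273 CPM (-0.84). The erythroid clusters differed, however: Rrm2 was 313 and 137 CPM in cluster 15 and 731 and 533 CPM in cluster 9, but 87.9 and 141 CPM in cluster 11. In monocytes Rrm1 was 156 and 135 CPM (-0.21) and Rrm2 98.1 and 96.6 CPM (-0.02). In mature neutrophils Rrm1 was 34.4 and 16.0 CPM (-1.11) and Rrm2 35.0 and 15.4 CPM (-1.18), while Hba-a1, a gene of erythroid cells, was also lower there (528 and 311 CPM). Its part in the result was not tested.

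Of the thymidylate and dUTP enzymes Dtymk was at least 1.5-fold higher in immature neutrophils and in monocytes taken as whole classes. Within clusters, Dut was 0.74 in immature neutrophil cluster 2, and Tyms 0.69 in monocyte cluster 7. Dtymk was 57.8 and 88.8 CPM in immature neutrophils (0.62 [0.52, 0.72]) and 91.3 and 147 CPM in monocytes (0.69), but 0.20 and 0.32 relative to genes of like length. Tyms was 67.3 and 87.1 CPM in monocytes (0.37), and Dut 144 and 191 CPM (0.41). In granulocyte progenitors Tyms differed by 0.38, Tk1 by 0.25, Dtymk by 0.39 and Dut by 0.39. Rrm2b was 20.9 and 17.6 CPM in immature neutrophils and 27.8 and 23.2 CPM in mature cells. Rrm2 made up 94.8% and 93.6% of the UMIs of Rrm2 and Rrm2b in granulocyte progenitors, 55.8% and 39.9% in mature neutrophils and 99.0% and 98.1% in erythroid cells.

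Dck was lower in the MYC library in each class of the neutrophil lineage, with 36.9 and 24.3 CPM in granulocyte progenitors (-0.60), 46.2 and 28.7 CPM in immature neutrophils (-0.68), 64.5 and 23.0 CPM in the unnamed stage (-1.49, but -0.37 with doublets kept) and 239 and 104 CPM in mature cells (-1.20 [-1.32, -1.08]). It was 77.1 and 36.7 CPM in monocytes (-1.07), 33.6 and 16.5 CPM in stem or multipotent progenitors (-1.02), 179 and 74.1 CPM in erythroid cells (-1.27) and 80.0 and 14.4 CPM in the B lineage (-2.47). The B lineage held 414 B progenitors, the B class with the most Dck, in the control but 18 in the other library. In T or NK cells and in basophils or mast cells Dck had too few UMIs. Mature neutrophils came from different clusters in the 2 libraries, since cluster 3 held 1870 cells from the control and 163 from the MYC library, whereas cluster 4 held 206 and 1592. Within cluster 3 Dck was 247 and 125 CPM (-0.98), and within cluster 4 it was 177 and 102 CPM (-0.79). Camp, a gene of immature neutrophils, was 1279 and 2737 CPM in mature neutrophils, and its part in the result was not tested. Erythroid cluster 11 was an exception, with 63.6 and 64.8 CPM (0.03).

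Samhd1 was 463 and 280 CPM in monocytes (-0.72 [-0.77, -0.68]), 117 and 66.4 CPM in immature neutrophils (-0.82, but -0.19 with doublets kept) and 714 and 293 CPM in conventional dendritic cells (-1.28). It was 738 and 521 CPM in mature neutrophils (-0.50), 70.0 and 55.6 CPM in stem or multipotent progenitors (-0.33) and 55.4 and 50.3 CPM in erythroid cells (-0.14). Mature neutrophils came mostly from cluster 3 in the control and from cluster 4 in the MYC library, and the part of this in the Samhd1 value was not tested. Both libraries placed Samhd1 highest in mature neutrophils. Cycling cells, in which Samhd1 was lower, were 44.6% of control and 64.2% of MYC-library immature neutrophils, and 48.9% and 57.1% of monocytes. With a minimum of 20 UMIs in place of 10 they were 33.4% and 35.7% of immature neutrophils, and 34.0% and 33.5% of monocytes. Within cycling monocytes Samhd1 was 254 and 185 CPM (-0.46), and within the others 823 and 484 CPM (-0.77). Within immature neutrophils the values were -0.36 and -0.74.

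Ratios of the 6 genes with an E-box in their windows differed among themselves. In monocytes these were 0.95 for Nme1, 0.69 for Dtymk, 0.53 for Impdh2, 0.40 for Atic, 0.37 for Tyms and 0.18 for Paics. In stem or multipotent progenitors they were 0.45, 0.36, 0.13, 0.00, 0.11 and -0.10 in the same gene order. Nme2 and Aprt, whose windows lack it, stood at 1.12 and 0.80 in monocytes.

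For the genes with the most regular ratios, the difference held in both kinds of cell. In monocytes the ratio of Nme2 was 0.94 in cycling cells and 1.51 in the others, that of Aprt 0.65 and 1.07, that of Nme1 0.75 and 1.44, and that of Dck -0.98 and -1.32. In immature neutrophils Nme2 gave 1.52 and 2.16, and Dck -0.82 and -1.23. Rrm1 in contrast changed direction, with -0.34 in cycling monocytes and 0.32 in the others, and -0.61 and 0.36 in immature neutrophils. Over the 33 genes the median was 0.21 in cycling and 0.58 in other monocytes, and 0.10 and 0.48 in immature neutrophils, over those with enough UMIs.

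Conventional dendritic cells and the B lineage lay farthest apart. In conventional dendritic cells (252 and 177) Tyms was 12.95 and 51.9 CPM (2.0), Tk1 16.3 and 62.3 CPM (1.93), Dtymk 17.7 and 75.4 CPM (2.09), Dut 38.4 and 109.8 CPM (1.52), and Impdh2 48.4 and 122 CPM (1.34). Of 18 genes with enough UMIs 12 were at least 1.5-fold higher (20.9% of all genes), and Dck and Samhd1 were lower (17.5% of all genes). The share of cycling cells in this class was 7.37% among control and 39.3% among MYC-library cells. The median was 0.96 over the class and 0.54 in cells that were not cycling (201 and 99 cells), where 8 genes had enough UMIs and none of Tyms, Tk1, Dtymk and Dut was among them. In the B lineage Dut was 115 and 40.2 CPM (-1.52), Rrm1 117 and 30.1 CPM (-1.96), Rrm2 93.9 and 19.9 CPM (-2.24), Rrm2b 56.3 and 17.2 CPM (-1.71) and Prps2 35.9 and 13.7 CPM (-1.39). Dtymk (-0.68), Paics (-0.96), Gmps (-0.79) and Samhd1 (-0.75) completed the lower genes with Dck. Of these, Dtymk was -0.11 as a mean over cells. The class held 414 B progenitors of the control but 18 of the MYC library, and cycling cells were 20.2% and 5.53% of it. Among B-lineage cells that were not cycling, Dut was 23.5 and 28.5 CPM (0.28), Rrm1 29.2 and 18.3 CPM (-0.67), Paics -0.03 on the log2 scale, and Dck 35.8 and 9.35 CPM (-1.93), with a median of 0.28 over 15 genes.

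Transcript length moved with the ratios over the whole transcriptome. In monocytes the median log2 ratio was 0.37 in the shortest of 10 groups of transcript length and -0.45 in the longest, and in granulocyte progenitors 0.31 and -0.61. The 33 genes followed it, with a rank correlation between length and ratio of -0.59 in granulocyte progenitors (33 genes), -0.55 in stem or multipotent progenitors (33), -0.41 in immature neutrophils (31) and -0.37 in monocytes (33), given as a description over genes that share libraries. Aprt (849 bases), Dtymk (1003) and Nme2 (1012) are the shortest of the 33, whereas Dck has 3078 bases, Samhd1 3926 and Rrm1 3997. Relative to genes of like length, Aprt was higher by 0.38 in granulocyte progenitors and 0.43 in monocytes, and Nme2 by 0.44 and 0.76. Dck was lower, at -0.20 and -0.87. On this scale Aprt was at least 1.5-fold higher in the B lineage (0.68) but not in the neutrophil classes, monocytes, stem or multipotent progenitors or erythroid cells, where it was 0.27 to 0.56. Other differences also fell short of 1.5-fold on it. In granulocyte progenitors and stem or multipotent progenitors these were Nme2 (0.44 and 0.46), Rrm1 (-0.32 and -0.40) and Pfas (-0.18 and -0.24). Dck did so in granulocyte progenitors and immature neutrophils (-0.42), Impdh1 in granulocyte progenitors (-0.35), Rrm1 in the unnamed stage (-0.45), Pfas in erythroid cells (-0.49), Gart in mature neutrophils (-0.44) and Guk1 in monocytes (0.24). Samhd1 did so in granulocyte progenitors (-0.18), immature neutrophils (-0.50), the unnamed stage (-0.29), monocytes (-0.45) and the B lineage (-0.16), where Gmps was -0.03 and Paics -0.56. Over all neutrophil-lineage cells none of Nme2, Aprt (both 0.43), Rrm1 (-0.21), Pfas (-0.22) and Impdh1 (-0.42) was 1.5-fold apart. Gmps, Paics and Rrm2b, which differed least there in CPM, were 0.51, 0.31 and 0.39 on this scale. Relative to length 34 of 200 gene-class pairs were at least 1.5-fold higher and 10 lower, beside 8.21% and 7.19% of the pairs of all genes. Some reached 1.5-fold only on this scale. Among them were Gmps in granulocyte progenitors (0.63), immature neutrophils (0.84) and monocytes (0.73). Others were Rrm2b in granulocyte progenitors (0.81), and Uck2 (0.66) and Pfas (0.64) in monocytes. Whether length itself plays a part in the result was not tested.

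**Figure D5:**
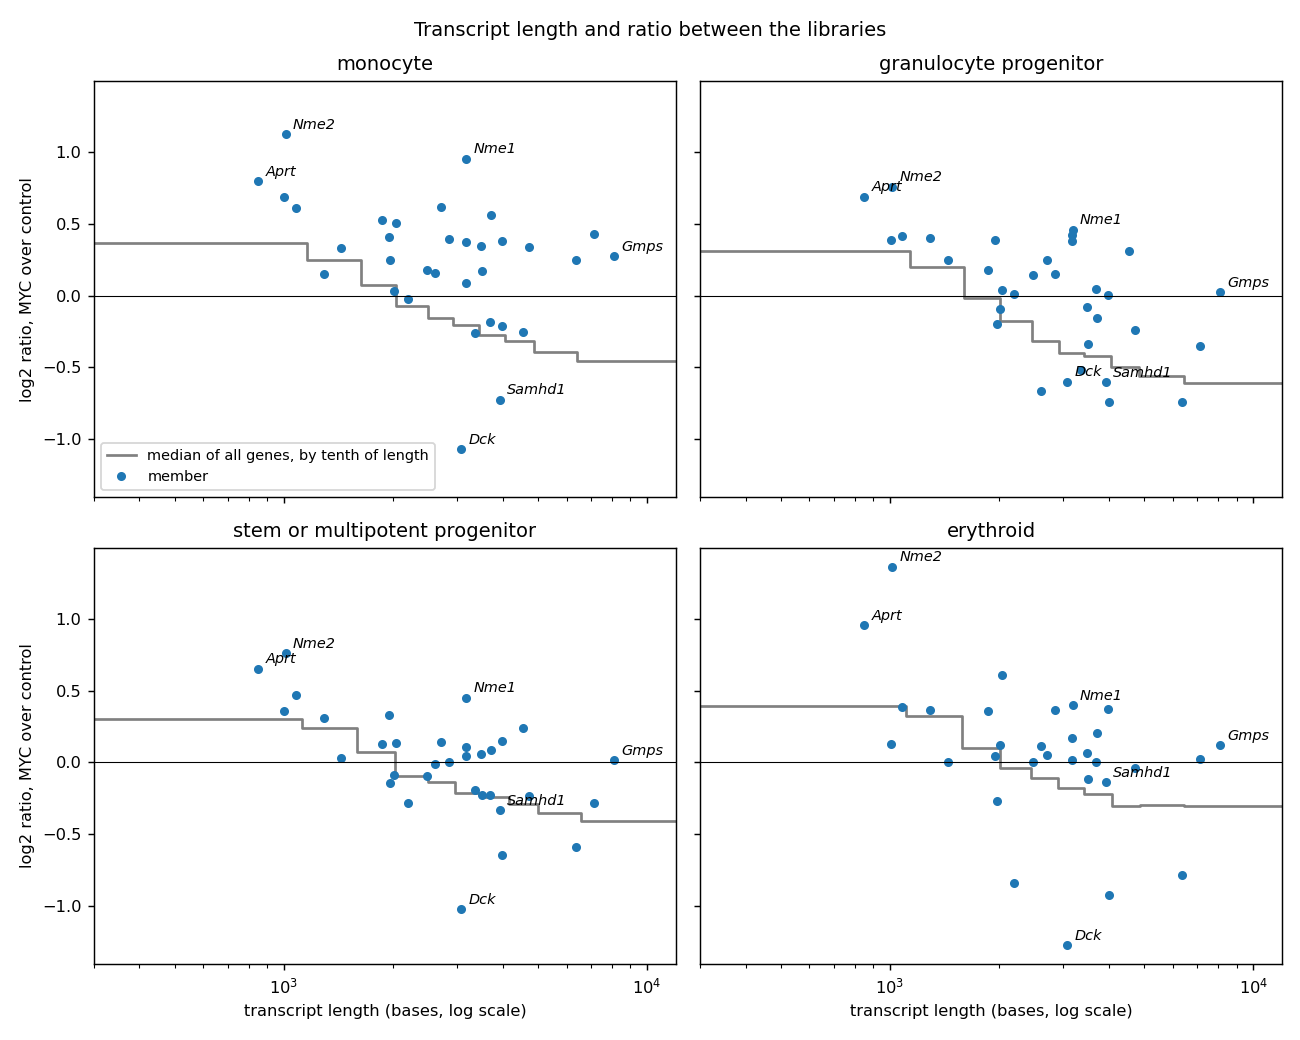
log2 ratio of the MYC library over the control against transcript length (logarithmic axis, bases) in 4 classes. Points are the 33 genes where UMIs sufficed, and the step line is the median of all genes in each of 10 groups by length, which falls in monocytes from 0.37 to -0.45.

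Of 68 further genes of nucleotide metabolism, 67 were among the features. Folate and one-carbon genes supply carbon for purines and thymidylate. In monocytes 8 of 14 were at least 1.5-fold higher and 1 lower (median 0.60), beside 7.69% and 15.7% of all genes. The counts were 5 and 0 of 12 in granulocyte progenitors (0.43), beside 4.71% and 24.6%, and 6 and 0 of 11 in erythroid cells (1.21), beside 11.7% and 14.2%. They were 2 and 0 of 13 in stem or multipotent progenitors (0.09), beside 4.74% and 9.77%, and 3 and 3 of 14 over the whole neutrophil lineage (0.12), beside 4.31% and 20%. In monocytes Shmt2, the mitochondrial serine hydroxymethyltransferase, was 30.4 and 65.5 CPM (1.11) and Psph, which completes serine synthesis, 11.4 and 26.2 CPM (1.20). Psph was 25.8 and 63.3 CPM in granulocyte progenitors (1.30), with Mthfd2 at 26.4 and 59.1 CPM (1.17), and 10.6 and 30.9 CPM in erythroid cells (1.54), with Phgdh at 40.2 and 109.9 CPM (1.45). Phgdh, the first enzyme of serine synthesis, was 2.73 and 7.94 CPM in immature neutrophils (1.54), with Psat1 at 4.79 and 9.98 CPM (1.06). In stem or multipotent progenitors the largest were Mthfd2 (0.86) and the kinase Nme4 (0.71).

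Cmpk2, a mitochondrial UMP/CMP kinase known as an interferon-induced gene, was among the lowest ratios in 5 of the 8 classes. It was 40.6 and 14.5 CPM in monocytes (-1.48), 76.2 and 23.7 CPM in erythroid cells (-1.68), 74.2 and 28.3 CPM in mature neutrophils (-1.39), 54.8 and 24.0 CPM in immature neutrophils (-1.19) and 119 and 52.0 CPM in the unnamed stage (-1.19). Nt5e, an ectonucleotidase, was 60.4 and 17.9 CPM in the unnamed stage (-1.75) and 5.73 and 1.25 CPM in immature neutrophils (-2.19). Ampd3 was 20.2 and 9.87 CPM in granulocyte progenitors (-1.03), as was Cant1 at 25.3 and 12.4 CPM (-1.03), and Ampd3 was 76.2 and 38.7 CPM in erythroid cells (-0.98). Of the nucleoside carriers, 3 of 5 were at least 1.5-fold lower in monocytes (median -0.59), beside 15.7% of all genes, and 2 of 5 in granulocyte progenitors (-0.57), beside 24.6%. None of 5 was in immature neutrophils (-0.35), beside 18.2%, and 1 of 5 was in stem or multipotent progenitors (-0.35), beside 9.77%. Other low values were Entpd1 in monocytes (-1.06), Slc25a33 in mature neutrophils (-1.38), and Slc29a3 (-0.87) and Cant1 (-0.72) in stem or multipotent progenitors.

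The uridine phosphorylase Upp1 was 33.9 and 122 CPM in mature neutrophils (1.85) and 36.1 and 79.6 CPM in the unnamed stage (1.14). Upp1 is also among the genes that define mature neutrophil cluster 4, which is mostly of the MYC library, so this value is a description only. Dctpp1, which cleanses dCTP pools, was 3.87 and 10.9 CPM in the unnamed stage (1.49) and 16.3 and 29.9 CPM in mature neutrophils (0.88). In the B lineage Ggh was 9.42 and 72.2 CPM (2.94) and Phgdh 81.3 and 239.7 CPM (1.56), while Nt5c2 was 30.05 and 16.0 CPM (-0.91). Plasma cells gave 5037730 of the 11780977 UMIs of this class in the control, and 1785154 of 2561290 in the MYC library. The part of this mix in these values was not tested.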

How the data were processed

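Each of the 2 libraries, from a droplet kit that reads 3′ ends per the labels' protocols, was deposited by the authors as whole-number UMI counts for each gene and barcode. Per the file headers they come from Cell Ranger 6.0.0. The submitters' processing notes name Cell Ranger 6.0, Seurat and the build GRCm38 (mm10), while the annotation is not given in the sources used here. Cells were kept with at least 500 UMIs, 200 genes and under 10% mitochondrial UMIs, which removed 137 and 1609 control barcodes and 8 and 1600 of the MYC library for genes and mitochondrial share. Doublets were scored with Scrublet in scanpy 1.11.5. Its automatic threshold called none in the MYC library, so a common score of 0.2, chosen after the scores were seen, was used, which removed 558 control cells (3.61%) and 356 of the MYC library (2.76%). Cells were clustered together (Leiden, resolution 1, 30 components of 2000 variable genes, the 33 genes left out) and named from markers of 18 cell types. A cluster stayed unnamed with fewer than 3 detected markers, with no marker of its class among its 10 leading genes, with more markers of another class there, or with low UMIs. Clusters 18 (289 and 52 cells) and 23 (123 and 65 cells) scored best for mature neutrophils and monocytes. Both stayed unnamed and lie outside those classes.

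Levels have exact Poisson intervals, ratios exact conditional binomial intervals and shares exact Clopper-Pearson intervals at 95%, computed with scipy 1.17.1 and tested on simulated data. Named genes were those at least 1.5-fold apart in a class with 200 cells in each library, the 3 highest in each main class, the isozyme pairs and the 3 least different in the neutrophil lineage, and of the further pathway genes the 2 largest and 2 smallest ratios in each class, of which 1 value is not reported here. Lengths and positions came from GENCODE vM21 (GRCm38), with 32158 features (99.6%) matched. The 33 genes and the lists were chosen with earlier results of these data known. Each result had up to 15 alternatives, of which scaling by transcript length was added after the data were seen.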

Additional observations from a re-analysis of the deposited data

Results flagged for a closer look

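A total of 5 genes were at least 1.5-fold higher in the MYC library in conventional dendritic cells (20.9% of all genes) and at least 1.5-fold lower in the B lineage (39.8%). They were 5 of 17 tested in both, beside 5.65% of all genes tested in both and 29 of 29 G2/M genes. Their log2 ratios were 2.09 and -0.68 for Dtymk, 1.52 and -1.52 for Dut, 1.32 and -0.96 for Paics, 0.89 and -1.96 for Rrm1, and 0.59 and -2.24 for Rrm2, with the dendritic value first. The difference between the classes was not tested, as there was 1 library for each genotype. Cycling cells went from 7.37% to 39.3% of conventional dendritic cells and from 20.2% to 5.53% of the B lineage, and B progenitors from 414 to 18 cells.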

How the results depend on the processing

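No paired analysis was possible because there was 1 library for each genotype. Of the 67 gene-class pairs at least 1.5-fold apart, 66 kept their sign under each alternative that gave a value and 26 stayed at least 1.5-fold apart under all of them. The exception was Dut in the B lineage, which turned from -1.52 to 0.28 in cells that were not cycling. Median-of-ratios scaling moved the median log2 ratio of the genes to 0.28 in the neutrophil lineage, 0.32 in granulocyte progenitors, 0.47 in immature neutrophils, 0.48 in monocytes and 0.17 in stem or multipotent progenitors. Keeping cells under 5% mitochondrial UMIs gave 0.27 in the neutrophil lineage, 0.37 in granulocyte progenitors, 0.58 in monocytes and 0.30 in erythroid cells. Cells that were not cycling gave 0.20 in the neutrophil lineage, 0.48 in immature neutrophils, 0.58 in monocytes and 0.28 in the B lineage. Medians relative to transcript length were 0.24 in the neutrophil lineage and 0.26 in granulocyte progenitors. In monocytes the median was 0.42 with doublets kept and at Leiden resolutions 0.5 and 2, and 0.50 with classes from markers alone. In erythroid cells it was -0.071 without the 20 most abundant genes, 0.21 as a mean over cells and -0.039 at resolution 2. Of the pairs, 48 of 200 were at least 1.5-fold higher with median-of-ratios scaling (13.9% of pairs of all genes), 43 of 195 under 5% mitochondrial UMIs (11%), 28 of 87 in cells not cycling (11%) and 14 of 157 in cycling cells (6.29%). At least 1.5-fold lower were 12 of 200 with median-of-ratios scaling (8.44%), 14 of 153 at resolution 0.5 (17.3%), 14 of 182 with markers alone (16.2%), 12 of 87 in cells not cycling (21.1%), 14 of 157 in cycling cells (15.6%) and 10 of 200 relative to length (7.19%). For cells not cycling, a minimum of 20 cycling UMIs gave a median of 0.0017 in stem or multipotent progenitors, against 0.22, and 0.14 in erythroid cells, against 1.80 over 9 genes, and no thinning gave 2.90 in erythroid cells, over 5 genes. Resolution 0.5 gave no stem or multipotent class. Counting error limits the smaller classes, with enough UMIs for 9 of the 33 genes in T or NK cells and 18 in conventional dendritic cells, and also the unnamed stage (19), mature neutrophils (20) and the B lineage (22).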
